A study of Mus musculus with 6 samples.

Results

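*Ccl8*, *Ccl11*, *Ccl6*, and *Ccl9* are CC chemokine genes, and RNA sequencing of mouse adipocyte cultures is described here for these 4 of the 4864 genes analysed. They were chosen by name from the deposited table after their levels with and without NJT-2 were known, so that their difference between the groups is given as a description, and calls made on it are counted only beside the share of all genes called. The cells were ADSCs, adipose-derived precursors that the labels call mesenchymal stem cells, isolated from subcutaneous adipose tissue of wild-type male C57BL/6J mice, and the age of the mice is not given in the sources used here. All cultures received the same adipogenic cocktail of dexamethasone, insulin, 3-isobutyl-1-methylxanthine, indomethacin, and triiodothyronine. The vehicle group (3 libraries, labelled Control) was differentiated without the compound, and the NJT-2 group (3 libraries) was, by its labels, differentiated with NJT-2, which is saikosaponin A, a plant terpenoid. In this cell model the study used 200 nM and differentiated the cells to day 8, and it does not state either separately for the sequenced cultures. Its text describes the compound as present during differentiation for some experiments and as added to mature adipocytes for others. Its methods describe digestion, filtering, and culture of the tissue cells and no sorting step, so that other cells of the tissue could remain in the cultures. The labels do not say whether the 3 libraries of a group came from separate mice, and the spread between them may be technical.

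Chemokines are small secreted proteins that attract leukocytes along a gradient through G protein-coupled receptors. The CC class is named for a pair of adjacent cysteines near the amino terminus. In adipose tissue they are made by stromal cells, macrophages, and adipocytes and are known for the recruitment of monocytes and eosinophils. *Ccl11* encodes eotaxin, the ligand of CCR3 that attracts eosinophils. *Ccl8* encodes a monocyte chemoattractant protein, and the products of *Ccl6* and *Ccl9* are ligands of CCR1.

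All 4 genes lie on chromosome 11, as pairs in separate chemokine clusters (coordinates of the deposited table, GRCm38). The genes of a pair are neighbours among the analysed genes, and genes that were not analysed could lie between them. *Ccl11* (ENSMUSG00000020676, 82057823 to 82062955) and *Ccl8* (ENSMUSG00000009185, 82115185 to 82116799) are on the plus strand, with 52229 bases between them. *Ccl9* (ENSMUSG00000019122, 83572919 to 83578636) and *Ccl6* (ENSMUSG00000018927, 83587882 to 83593087) are on the minus strand, with 9245 bases between them and 1456 kb from the first pair. In the mouse annotation GENCODE M21, the coding transcripts of *Ccl11* and *Ccl8* have 3 exons and those of *Ccl6* and *Ccl9* have 4. The first pair is also the shorter, as the gene models behind the deposited values were 511 bases for *Ccl8* and 1082 for *Ccl11*, and 1795 for *Ccl6* and 3047 for *Ccl9*. Across all annotated transcripts, the longest match of *Ccl6* to another gene was 407 bases of *Ccl9* at 69.0% identity. The longest match of *Ccl8* was 339 bases of *Ccl12* at 70.2%, and that of *Ccl11* was 316 bases of *Ccl7* at 67.1%. For *Ccl9* it was 919 bases of *Gm45033* at 66.7%. At 90% identity or more, *Ccl8* and *Ccl6* had no match to another gene. The longest at this identity was 52 bases of *4930526A20Rik* for *Ccl11* and 194 bases of *Uevld* for *Ccl9*.

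The sequences before the start sites are shown for *Ccl8*, which was among the lower genes, and for the neighbours *Ccl6* and *Ccl9*, which differed from each other with NJT-2. Each is the 120 bases before the start site on the gene's own strand (RefSeq, GRCm38.p6, in which 3 of the 4 genes were matched), at chr11:82115065-82115184 for *Ccl8*, chr11:83593088-83593207 for *Ccl6*, and chr11:83578637-83578756 for *Ccl9*. Capitals mark the letters TATAAA and the longest run that *Ccl6* and *Ccl9* share.
Ccl8: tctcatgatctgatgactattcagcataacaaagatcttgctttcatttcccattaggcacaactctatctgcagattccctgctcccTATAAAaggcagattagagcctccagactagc
Ccl6: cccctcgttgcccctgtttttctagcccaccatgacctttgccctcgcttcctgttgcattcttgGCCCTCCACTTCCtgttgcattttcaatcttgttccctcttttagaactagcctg
Ccl9: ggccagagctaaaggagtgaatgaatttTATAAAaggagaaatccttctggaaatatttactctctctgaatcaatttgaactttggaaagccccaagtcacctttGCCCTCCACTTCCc
The shared run GCCCTCCACTTCC, of 13 bases, starts 55 bases before the start of *Ccl6* and 14 bases before that of *Ccl9*, and 6 of 32851 annotated mouse promoters hold it on either strand. It belongs to a stretch of 74 aligned positions, of which 59 (79.7%) were identical between *Ccl6* and *Ccl9*, so that the annotated starts of the neighbours lie in related sequence at an offset. TATAAA, the core of the TATA box, starts 32 bases before the start of *Ccl8* and 92 bases before that of *Ccl9*, with no match in *Ccl6*. Over windows from 250 bases before to 50 bases after the start, on both strands, TATAAA was found in 13.6% of all promoters, with 1 match in *Ccl8* and 3 in *Ccl9*, and matches on opposite strands may overlap. The NF-kB motif, searched as GGG and TTCC with 3 bases between them, had 1 match in *Ccl9* (35 bases before the start) and none in *Ccl8* or *Ccl6*, and 5.56% of all promoters hold it. The letters TGANTCA, for AP-1, had 1 match in *Ccl9* (53 bases before the start) and none in *Ccl8* or *Ccl6*, against 7.81% of all promoters. No match was found in these 3 windows for TTC and GAA with 4 bases between them (STAT6, 6.95% of promoters). The same letters with 3 bases between (other STAT factors, 8.3%) and ACANNNTGT (the glucocorticoid receptor, 6.85%) also had none. The exact repeat of AGGTCA with 1 base between, a strict form of the PPAR response element, had none and is rare (0.0396%). Forms of this element with other letters were not searched, so that the lack of a match does not cover them. A match or its lack describes the letters in the window only.

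The authors' counts on the analysed genes summed to between 16093037 and 28929673 per library, which is 27.7% to 32.5% of the library totals that the FPKM values imply. Vehicle replicate 1 and NJT-2 replicate 2 lay farthest from their groups. The root mean square log2 difference to the own group was 1.48 for vehicle replicate 1 and 1.23 for NJT-2 replicate 2, and 0.759 to 1.17 for the others. Vehicle replicate 3 lay closer to the NJT-2 group (1.004) than to its own (1.17). The libraries also differed in their trend with gene length. Short genes were relatively high in vehicle replicates 1 and 2 (Spearman correlations of -0.388 and -0.401 between a gene's deviation and its length, across genes) and relatively low in the other 4 libraries (0.184 to 0.347). In 82 tested genes with models no longer than that of *Ccl11*, the median log2 fold change was -1.10, where that of all 3705 tested genes was 0.02. With the trend with length taken out of each library both medians were 0.03. The trend was fitted on these same genes, so that its removal brings the medians together by itself. Any difference between the groups that short genes share is taken out with it.

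*Ccl8*, *Ccl11*, and *Ccl6* were many times lower in the NJT-2 libraries than in the vehicle libraries, while the groups overlapped for *Ccl9*. FPKM values, which are counts divided by gene length and library total, are used for levels, and log2 fold changes are those of edgeR on the counts over all tested genes. In RNA from whole cultures, fewer cells of a type and less RNA per cell cannot be told apart.

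*Ccl11* had FPKM values of 43.2, 142, and 127.5 in vehicle replicates 1, 2, and 3 and of 5.75, 3.35, and 4.55 in NJT-2 replicates 1, 2, and 3. Its groups did not overlap, and the lowest vehicle library was 7.51 times the highest NJT-2 library. The means were 104 ± 53.4 for vehicle and 4.55 ± 1.20 for NJT-2 (SD, n = 3 each), with vehicle replicate 1 well below the other vehicle libraries. The log2 fold change of *Ccl11* was -4.59 (SE 0.44), 24.2-fold lower with NJT-2. Its counts were 2714, 13690, and 9848 with vehicle and 442, 255, and 344 with NJT-2.

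*Ccl8* had FPKM values of 107, 85.6, and 46.1 in vehicle replicates 1, 2, and 3 and of 2.45, 4.23, and 1.48 in NJT-2 replicates 1, 2, and 3. Here vehicle replicate 1 was the highest library of its group and NJT-2 replicate 2 the highest of the other. The means were 79.7 ± 31.0 and 2.72 ± 1.39 (SD, n = 3 each), the groups did not overlap, and the log2 fold change of -5.13 (SE 0.70) was 35.1-fold lower with NJT-2. The counts of *Ccl8* were 3184, 3900, and 1683 with vehicle and 89, 152, and 53 with NJT-2. The lowest of them, 53, has an exact Poisson interval of 39.7 to 69.3 (95%, counting error only).

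*Ccl6* had FPKM values of 20.1, 20.1, and 12.9 with vehicle and of 1.60, 0.50, and 1.59 with NJT-2, in the order of the replicate numbers. Its groups did not overlap, with the lowest vehicle library 8.07 times the highest NJT-2 library, and NJT-2 replicate 2 was the lowest of all. The means were 17.7 ± 4.15 and 1.23 ± 0.632 (SD, n = 3 each), and the log2 fold change was -4.11 (SE 0.59), 17.3-fold lower with NJT-2. The counts of *Ccl6* were 2099, 3217, and 1656 with vehicle and 205, 64, and 200 with NJT-2.

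*Ccl9* had FPKM values of 4.50, 4.44, and 3.17 with vehicle and of 6.06, 1.5, and 6.27 with NJT-2. NJT-2 replicates 1 and 3 lay above every vehicle library and NJT-2 replicate 2 lay below every one, so that the groups overlapped. The means were 4.04 ± 0.751 and 4.61 ± 2.70 (SD, n = 3 each), and the log2 fold change of -0.08 was smaller than its SE of 0.58. The counts of *Ccl9* were 797, 1205, and 690 with vehicle and 1310, 320, and 1335 with NJT-2. The sign of this difference turned with single libraries, from -0.35 without vehicle replicate 3 to 0.32 without NJT-2 replicate 2, and it was also above 0 (0.19) when scaled by the library totals, which moved the median of all genes from 0.02 to 0.16.

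**Figure D1:**
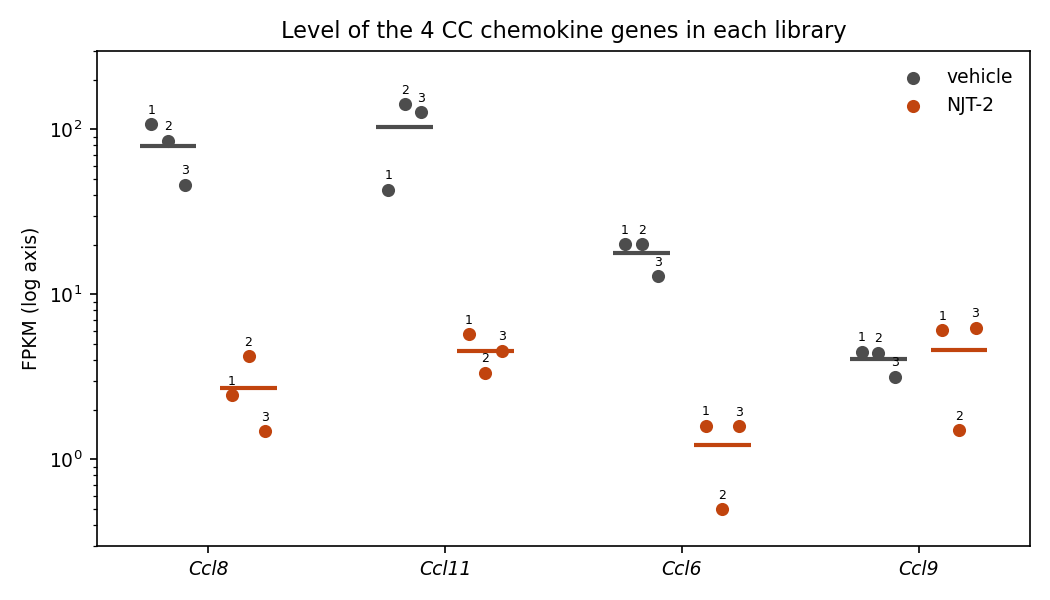
FPKM of *Ccl8*, *Ccl11*, *Ccl6*, and *Ccl9* on a log axis, with a point for each library (grey for vehicle, orange for NJT-2, numbered by replicate) and a bar at each group mean. For *Ccl8*, *Ccl11*, and *Ccl6* every NJT-2 library lies below every vehicle library, and for *Ccl9* the NJT-2 libraries lie on either side of the vehicle libraries.

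Of the 4 genes, 3 were without overlap and lower with NJT-2, which held for 11.5% of all tested genes. The same 3 were called lower by edgeR's quasi-likelihood test with a threshold of 0.05 on the adjusted p (Benjamini-Hochberg) and of 1 on the size of the log2 fold change, a call that 0.135% of all tested genes had (5 of 3705), and by DESeq2, where 3.4% had it. As the genes were chosen on this contrast, these counts describe the choice. The edgeR calls depended on which library was left out. Without vehicle replicate 2, NJT-2 replicate 1, or NJT-2 replicate 3, it called 0 of all 3705 tested genes lower, and so 0 of the 4. Without vehicle replicate 1 it called 1 gene lower in all, and without vehicle replicate 3 it called 2, each time with 1 of the 4 among them. Without NJT-2 replicate 2 it called 19 lower in all, and the number among the 4 stayed at 3. Without both vehicle replicate 1 and NJT-2 replicate 2, the log2 fold changes were -5.07 for *Ccl8*, -4.71 for *Ccl11*, -3.37 for *Ccl6*, and 0.69 for *Ccl9*. In that fit 3 of the 4 were called lower, where 227 of all tested genes were. With each library's trend with gene length taken out, *Ccl8*, the shortest of the 4, had a log2 fold change of -3.70 in place of -5.13, and *Ccl11*, *Ccl6*, and *Ccl9* had -4.11, -3.57, and 0.13.

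**Figure D2:**
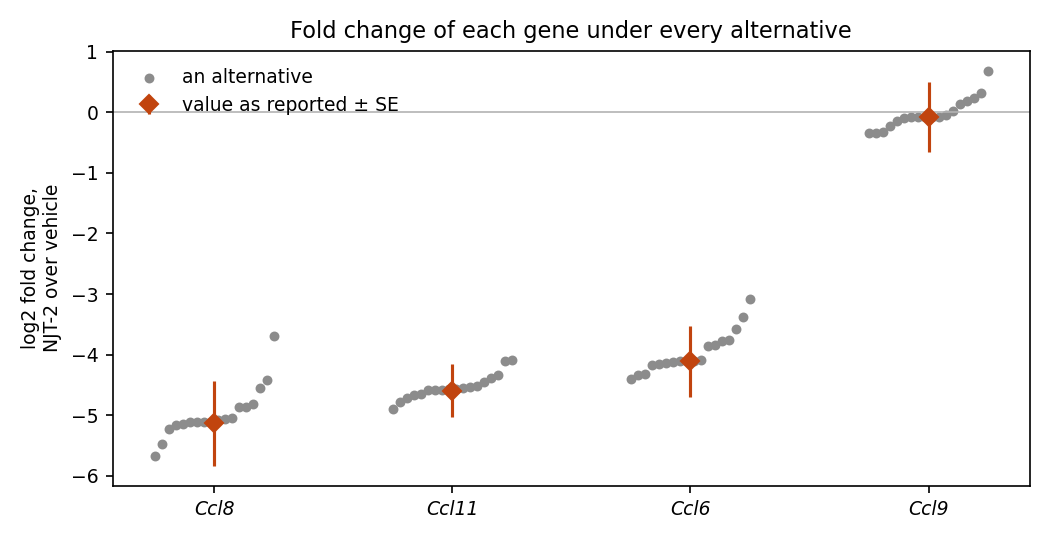
Log2 fold change of NJT-2 over vehicle for each gene, with an orange diamond and its SE for the value as reported and a grey point for each of the 18 alternatives, sorted by value. For *Ccl8*, *Ccl11*, and *Ccl6* every point lies below -3, and for *Ccl9* the points lie on both sides of 0.

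The order of the levels also differed between the groups. With vehicle, *Ccl11* and *Ccl8* had the highest FPKM, and their ranges overlapped. *Ccl6* lay below both in every vehicle library, and *Ccl9* lay below *Ccl6*, with no overlap between these ranges. With NJT-2, *Ccl9* and *Ccl11* had nearly the same mean, followed by *Ccl8* and *Ccl6*, and each neighbour in this order overlapped with the next. The FPKM of the 4 genes summed to 206 ± 40.9 in the vehicle group and 13.1 ± 3.21 in the NJT-2 group (SD, n = 3 each), 15.7 times lower by these means. *Ccl9* made up 2.00% ± 0.496 of this sum with vehicle and 33.0% ± 15.4 with NJT-2, where *Ccl9* was the highest of the 4 in replicates 1 and 3.

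The ratio of the genes of a pair within a library does not depend on the library total. It can still carry the library's trend with gene length, as the genes of a pair differ in length, and it was not corrected for this trend. The FPKM of *Ccl6* was 4.47, 4.53, and 4.08 times that of *Ccl9* in vehicle replicates 1, 2, and 3 and 0.264, 0.333, and 0.254 times in NJT-2 replicates 1, 2, and 3. This ratio was 4.36 ± 0.246 in the vehicle group and 0.284 ± 0.0433 in the NJT-2 group (SD, n = 3 each), 15.4 times lower, with little spread within a group also in NJT-2 replicate 2, where both genes had their lowest levels. The other pair behaved differently. The FPKM of *Ccl11* was 0.403, 1.66, and 2.76 times that of *Ccl8* with vehicle and 2.35, 0.792, and 3.07 times with NJT-2. This ratio was 1.61 ± 1.18 with vehicle against 2.07 ± 1.17 (SD, n = 3 each), the groups overlapped, and the lowest ratio belonged to vehicle replicate 1.

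**Figure D3:**
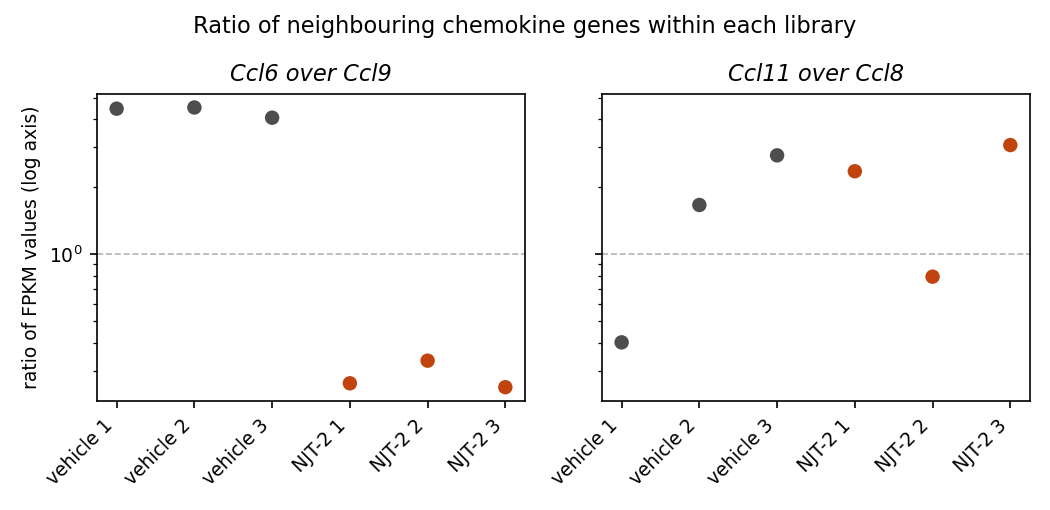
Ratio of the FPKM of *Ccl6* to *Ccl9* (left) and of *Ccl11* to *Ccl8* (right) in each of the 6 libraries on a log axis, with a dashed line at a ratio of 1. The first ratio lies between 4.08 and 4.53 in the vehicle libraries and between 0.254 and 0.333 in the NJT-2 libraries, while the second ratio overlaps between the groups.

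Within 500 kb of the 4 genes and between them, 24 other genes are among those analysed and 14 were tested. By edgeR's quasi-likelihood test 0 of the 14 were called, 1 had an unadjusted p under 0.05, and DESeq2 called 1. This 1 gene was *Mmp28*, a matrix metalloproteinase gene named here after its value was seen, with a mean FPKM of 0.963 ± 0.570 in the vehicle group and 9.69 ± 7.36 in the NJT-2 group (SD, n = 3 each) and an adjusted p of 0.148 in edgeR and 0.00152 in DESeq2. Of the 12 that are not chemokine genes, the median log2 fold change was 0.11, with a lowest value of -0.24. *Ccl3* and *Ccl4*, inflammatory chemokine genes next to *Ccl6*, were tested and not called. *Ccl3* had FPKM values of 2.61, 2.94, and 2.52 with vehicle and of 0.63, 8.72, and 0.82 with NJT-2, with NJT-2 replicate 2 far above all others. The log2 fold change of *Ccl3* was 0.19 (SE 1.05, adjusted p = 0.918 in edgeR), and without NJT-2 replicate 2 it was -2.13. *Ccl4* was counted 121, 106, and 51 times in the vehicle libraries and 0, 46, and 17 times in the NJT-2 libraries. Its FPKM values did not overlap between the groups, and its log2 fold change was -2.43 (SE 1.38, adjusted p = 0.351 in edgeR). The value of *Ccl4* was -1.59 without vehicle replicate 1, -3.82 without NJT-2 replicate 2, -0.91 with the trend with gene length taken out, and -1.05 with limma on log2(FPKM + 1), and that of *Ccl3* was 1.28 with the trend taken out.

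**Figure D4:**
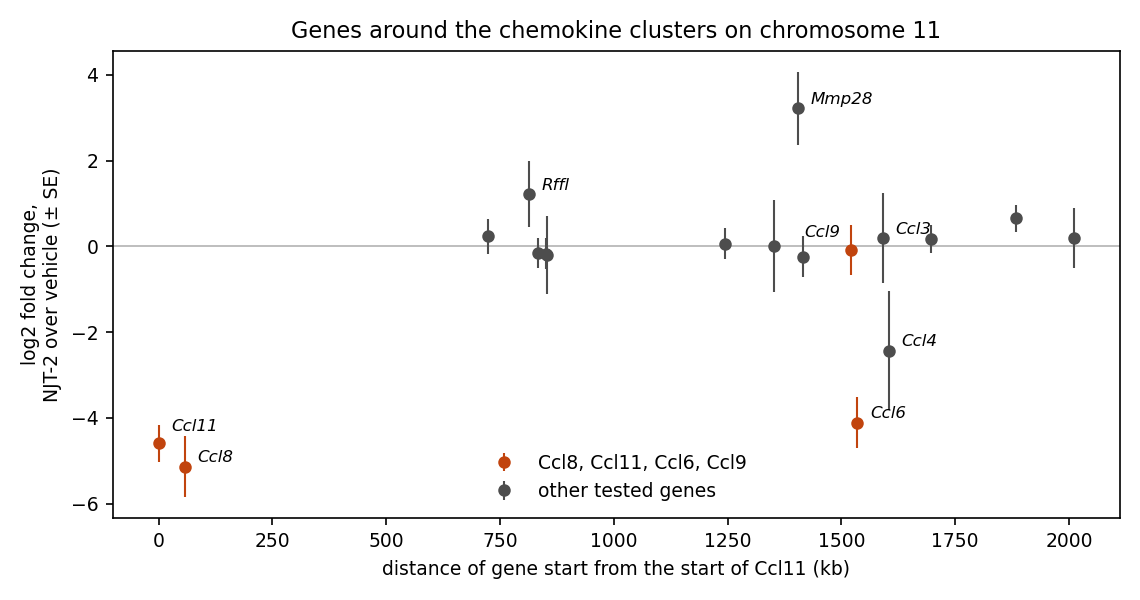
Log2 fold change of NJT-2 over vehicle with its SE for the tested genes on chromosome 11 by the distance of their start from the start of *Ccl11* in kb, with *Ccl8*, *Ccl11*, *Ccl6*, and *Ccl9* in orange and other genes in grey. *Ccl11*, *Ccl8*, and *Ccl6* have the lowest values, *Ccl9* lies near 0 beside *Ccl6*, and the genes in the window that are not chemokine genes lie at -0.24 or above.

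For the other genes of the chemokine system, the lists held 21 CC chemokine ligands, of which 8 are among the analysed genes, 17 other chemokine ligands, of which 3 are, and 24 chemokine receptors, of which 0 are, so that the receptors of the 4 chemokines were not analysed here. Besides the 4 genes, 3 CC ligands were tested (*Ccl3*, *Ccl4*, and *Ccl25*) and 0 were called by edgeR or DESeq2, with 0 at an unadjusted p under 0.05 (DESeq2 gave no adjusted p for *Ccl3*). *Ccl25*, known for the homing of T cells to the gut, averaged an FPKM of 0.673 ± 0.203 in the vehicle group and 1.11 ± 0.311 in the NJT-2 group (SD, n = 3 each, log2 fold change 0.60, adjusted p = 0.448 in edgeR). Its groups did not overlap, with NJT-2 higher, by a small gap between 0.81 in vehicle replicate 3 and 0.84 in NJT-2 replicate 3. *Ccl24*, another eotaxin gene, was under the filter, at 19, 0, and 11 counts for vehicle against 4, 0, and 4 for NJT-2. Of the 3 other chemokine ligands, edgeR called 0, with 2 at an unadjusted p under 0.05, and DESeq2 called these 2 lower. *Cxcl16*, a membrane-bound ligand of CXCR6, had FPKM values of 33.1, 28.4, and 18.2 with vehicle and of 3.45, 10.4, and 2.36 with NJT-2. The log2 fold change of *Cxcl16* was -2.52 (SE 0.70, adjusted p = 0.164 in edgeR, 0.00766 in DESeq2), its groups did not overlap, and without NJT-2 replicate 2 the value was -3.50. *Cxcl14*, a chemokine of epithelial and stromal cells, had a mean FPKM of 178 ± 15.7 in the vehicle group and 67.5 ± 28.5 in the NJT-2 group (SD, n = 3 each), also without overlap. Its log2 fold change was -1.63 (SE 0.41, adjusted p = 0.134 in edgeR, 0.00582 in DESeq2). *Cxcl13*, which attracts B cells, had FPKM values of 27.1, 59.1, and 47.9 with vehicle and of 199, 12.9, and 124.5 with NJT-2, so that it was high in NJT-2 replicates 1 and 3 and lowest in NJT-2 replicate 2, as *Ccl9* was (log2 fold change 1.17, SE 0.78, adjusted p = 0.403 in edgeR, and 0.46 without NJT-2 replicate 1).

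The cytokines and receptors known to act on chemokine genes showed no calls in edgeR. Of 30 listed, 12 were tested, 2 had an unadjusted p under 0.05 and were lower with NJT-2, and edgeR and DESeq2 called 0. The median log2 fold change of the 12 was 0.07. *Csf1*, the macrophage growth factor, averaged an FPKM of 347 ± 162 in the vehicle group and 226 ± 44.5 in the NJT-2 group (SD, n = 3 each, adjusted p = 0.339 in edgeR), and *Il6st*, the shared receptor subunit of the interleukin 6 family, had 73.5 ± 38.7 and 71.1 ± 28.3 (adjusted p = 0.843 in edgeR). Of the STAT and NF-kB pathway, 16 of 32 genes were tested, with 0 called by edgeR or DESeq2, 0 at an unadjusted p under 0.05, and a median of 0.37. *Nfkbia*, the NF-kB inhibitor that NF-kB itself induces, had FPKM values of 16.4, 76.8, and 76.5 with vehicle and of 41.2, 202, and 41.9 with NJT-2. It was highest in NJT-2 replicate 2, as *Ccl3* was, and lowest in vehicle replicate 1. *Stat3*, the main STAT of the interleukin 6 family, had 11.1, 22.3, and 30.7 with vehicle and 22.4, 77.8, and 26.4 with NJT-2, with the same library highest. Among genes for the binding and processing of chemokines, 6 of 14 were tested and edgeR called 0, with 2 at an unadjusted p under 0.05 and lower, and DESeq2 called 1. This was *Sdc1*, a heparan sulfate proteoglycan gene, with a mean FPKM of 74.3 ± 17.6 in the vehicle group and 35.8 ± 9.21 in the NJT-2 group (SD, n = 3 each, log2 fold change -1.22, adjusted p = 0.137 in edgeR and 0.00381 in DESeq2). *Sdc4*, of the same family, had 311 ± 89.1 and 171 ± 139 (adjusted p = 0.38 in edgeR). Over all pathway lists without the 4 genes, edgeR called 0 genes and DESeq2 called 3 lower, where DESeq2 called 3.4% of all tested genes lower. Without vehicle replicate 1 and NJT-2 replicate 2 edgeR called 1 pathway gene higher and 12 lower. In that fit it called 255 higher and 227 lower over all 3705 tested genes.

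Markers of other cells that the cultures could hold were examined list by list. Of 25 macrophage and monocyte markers 7 are among the analysed genes, and their summed FPKM was 10.1 to 13.1 with vehicle and 63.8, 32.1, and 47.8 in NJT-2 replicates 1, 2, and 3. Of these, 5 were tested and 1 was called higher by edgeR (background of calls higher 0.567%), with 4 at an unadjusted p under 0.05, and DESeq2 called 3 higher (background 4.4%). The called gene was *Adgre1*, which encodes the macrophage surface protein F4/80, at an FPKM of 0.88, 1.78, and 2.15 with vehicle and 22.9, 6.97, and 19.7 with NJT-2 (log2 fold change 3.23, SE 0.49, adjusted p = 0.0408 in edgeR). *Cd68* had 5.95 ± 1.21 in the vehicle group and 23.5 ± 5.49 in the NJT-2 group (SD, n = 3 each, adjusted p = 0.082 in edgeR), while *Csf1r*, the receptor of the macrophage growth factor, had 3.26 ± 0.646 and 3.91 ± 0.777 (adjusted p = 0.974 in edgeR). The scavenger receptor genes *Cd163* and *Msr1* were under the filter, with *Cd163* at 0, 0, and 6 counts for vehicle against 36, 15, and 22 for NJT-2, and *Msr1* at 16, 41, and 12 against 715, 56, and 440. Both had more counts with NJT-2, although those of *Cd163* were low in every library. The counts of *Msr1* in vehicle replicate 2 (41) and NJT-2 replicate 2 (56) were close. *Ccl8*, *Ccl11*, and *Ccl6* were thus lower in the group with the higher sums, and NJT-2 replicate 2, with the lowest sum of its group, had the lowest *Ccl11*, *Ccl6*, and *Ccl9* and the highest *Ccl8* of the NJT-2 libraries. The part of these markers in the chemokine levels was not tested.

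The markers of eosinophils and mast cells (3 of 10 analysed), lymphocytes (8 of 14), and neutrophils (3 of 10) were near 0 in every library, with summed FPKM values of at most 0.29, 0.79, and 0.21 and 0 genes above an FPKM of 1, and *Il5ra*, an eosinophil receptor gene, had 0 counts in all 6 libraries. The highest of these lists were *Kit* and *Cpa3* of mast cells, *Cd79a* of B cells and *Il7r* of lymphocytes, and *Elane* and *Retnlg* of neutrophils, at a mean FPKM of 0.115, 0.02, 0.158, 0.127, 0.0367, and 0.03 over the 6 libraries. Endothelial markers (4 of 11) summed to 1.15 to 2.64 with vehicle and 1.64 to 2.92 with NJT-2, and of the 2 tested, *Tek* and *Pecam1*, edgeR and DESeq2 called 0, with 0 at an unadjusted p under 0.05. The adipocyte markers (10 of 17) summed to 82.5 to 106 with vehicle but reached 1719.7 in NJT-2 replicate 1, 489 in replicate 2, and 1377 in replicate 3, and edgeR called 6 of the 10 higher. Among them *Adipoq*, which encodes adiponectin, was at an FPKM of only 0.38 to 0.50 in the vehicle libraries, so that a defining marker of the labelled mature adipocytes was near absent there. *Lpl*, which encodes lipoprotein lipase, had 63.2 ± 13.5 in the vehicle group and 320 ± 206 in the NJT-2 group (SD, n = 3 each, adjusted p = 0.2 in edgeR), and *Cd36*, which encodes a fatty acid transporter, had 1.30 ± 1.47 and 353 ± 130.1 (adjusted p = 0.0278 in edgeR). The log2 fold changes of the lipid droplet gene *Plin4*, the lipase genes *Lipe* and *Pnpla2*, and the glycerol metabolism gene *Gpd1*, also called, were 3.13, 4.25, 3.99, and 5.76, and without NJT-2 replicate 1 that of *Gpd1* was 5.04. Preadipocyte and fibroblast markers (4 of 18) summed to 227 to 998 with vehicle and 443 to 487 with NJT-2, all 4 were tested, edgeR called 1 lower, and DESeq2 called 3. The gene called by edgeR was *Pi16*, a marker of adipose progenitors, with 22.3, 19.4, and 12.5 with vehicle and 1.73, 0.98, and 1.95 with NJT-2 (log2 fold change -3.83, SE 0.50, adjusted p = 0.027 in edgeR), and without vehicle replicate 1 and NJT-2 replicate 2 the value was -3.12. *Dcn*, which encodes the matrix protein decorin, had 138 ± 95.0 and 38.7 ± 9.51 (SD, n = 3 each, adjusted p = 0.195 in edgeR), and *Col1a1*, which encodes a collagen chain, had 440 ± 293 and 388 ± 17.1 (adjusted p = 0.819 in edgeR). Over all cell marker lists, edgeR called 7 genes higher and 1 lower, against 21 and 5 over all tested genes. Without vehicle replicate 1 it called 0 markers, with 0 genes higher and 1 lower in all. Without vehicle replicate 2 it called 0 of all tested genes. Without vehicle replicate 3 it called 2 markers higher and 1 lower, with 2 genes higher and 2 lower in all. Without NJT-2 replicate 1 or without NJT-2 replicate 3 it called 1 marker higher, with 1 gene higher and 0 lower in all. Without vehicle replicate 1 and NJT-2 replicate 2 it called 14 markers higher and 3 lower, against 255 and 227 over all tested genes. The part of cell composition in the chemokine levels was not tested.

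**Figure D5:**
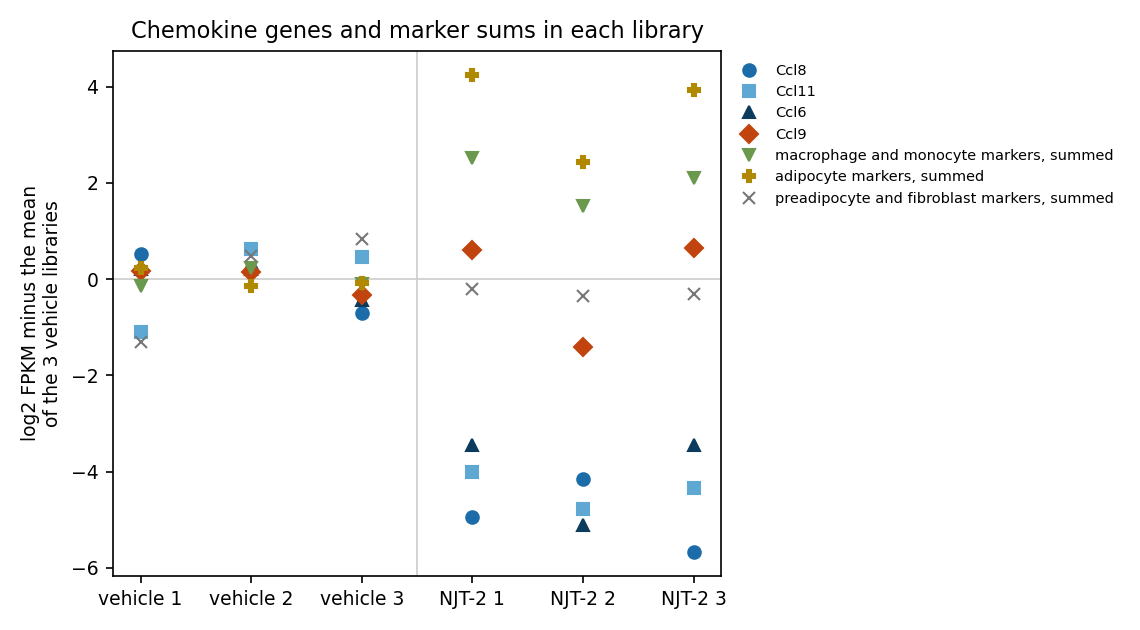
Log2 FPKM of *Ccl8*, *Ccl11*, *Ccl6*, and *Ccl9* and of the summed macrophage and monocyte, adipocyte, and preadipocyte and fibroblast markers in each library, each minus its own mean over the 3 vehicle libraries. In the NJT-2 libraries *Ccl8*, *Ccl11*, and *Ccl6* lie at -3.44 or below, *Ccl9* lies between -1.41 and 0.65, and the macrophage and adipocyte sums lie at 1.53 or above.

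To find genes with like patterns, the root mean square difference of log2 CPM profiles over the 6 libraries was used, each profile centred on its own mean. These genes were chosen by likeness to the contrast itself, and their values are a description. *Pi16* was the closest of all tested genes to the mean profile of the 4 chemokine genes (difference 0.265) and to *Ccl6* (0.330). The next for the mean profile were *Rapgef3*, which encodes a cAMP-activated exchange factor (0.440), *Tmem176a*, a membrane protein gene (0.475), *Lsp1*, a leukocyte cytoskeletal protein gene (0.567), and *Mx2*, an interferon-induced gene (0.645). The closest to *Ccl8* were *Mapk13* (0.517) and *Clec4n*, which encodes the myeloid lectin dectin-2 (0.895). The closest to *Ccl11* were *Mmp8*, a collagenase gene (0.710), and *Pi16* (0.856), and *Tmem176a* was the second for *Ccl6* (0.794). *Ccl9* resembled other genes, with *Adsl*, a gene of purine synthesis (0.124), and *Ndufaf7*, a gene for the assembly of respiratory complex I (0.150), closest to it. Between the chemokine genes themselves, *Ccl6* and *Ccl11* differed by 0.781, *Ccl8* differed from *Ccl11* by 1.05 and from *Ccl6* by 1.06, and *Ccl9* differed from the others by 1.96 to 2.65.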

How the data were processed

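RNA from 3 vehicle and 3 NJT-2 cultures was sequenced in paired ends with polyadenylated RNA selection and a dUTP library. Per the labels, the submitters' processing notes name cutadapt 1.9, HISAT2 2.2.1, StringTie 2.1.6, DESeq2, and edgeR with GRCm38, and the counting tool, annotation release, and use of strand are not given in the sources used here. The authors deposited raw read counts per gene and FPKM values, which they divided by gene length and library total and rounded. The part of the table analysed here had 4865 lines, of which 4864 were complete. Counts were tested in R 4.3.3 with edgeR 4.0.16 (quasi-likelihood test, TMM, Benjamini-Hochberg) over the 3705 genes that averaged an FPKM of 0.5 or more. Gene lengths and library totals were worked out from counts and FPKM. Log2 CPM profiles used a prior count of 2. On simulated counts for these genes with 200 changed by a log2 fold change of 3, 192 were found and 4 calls were false. These counts were drawn independently for each library with the fitted dispersion trend only. They held neither the trend with gene length nor the outlying libraries, so that they do not give the power in the real data. The counts of no 2 libraries agreed within sampling noise. NJT-2 replicates 1 and 3 were by far the closest pair (chi-square per gene 46.7), and the next, vehicle replicates 2 and 3, was at 372. Matches between transcripts used blastn 2.17.0 on GENCODE M21, and the alignment of promoters used Biopython 1.88.

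The 4 genes and all lists were chosen with earlier results of these data known. Named are these 4, every analysed chemokine or receptor gene, in each other list the called genes and the 2 with the highest mean FPKM, and the genes of most similar profile (5 for the mean of the 4 genes and 2 for each). Also named after their values were seen are *Mmp28*, *Cd163*, *Msr1*, *Csf1r*, and *Il5ra*. Alternatives were DESeq2 1.42.0, other factors and filters, limma 3.58.1 on log2(FPKM + 1) and log2(FPKM + 0.1), a replicate block, a gene length offset, and leaving out each library. Leaving out 2 libraries at once and a prior count of 2 for the fold change were added after seeing the data.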

Additional observations from a re-analysis of the deposited data

How the results depend on the processing

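The log2 fold changes of *Ccl8*, *Ccl11*, and *Ccl6* stayed below 0 under all 18 alternatives, and that of *Ccl9* was below 0 in 12 and above 0 in 6. Beyond the spread between replicates, only these moved: *Ccl8* to -3.70 and *Ccl11* to -4.11 with the gene length offset, and *Ccl11* to -4.09 and *Ccl6* to -3.09 with limma on log2(FPKM + 1), a scale that understates changes of low values. Leaving out each library, *Ccl8* ran from -5.67 to -4.56, *Ccl11* from -4.90 to -4.38, *Ccl6* from -4.40 to -3.76, and *Ccl9* from -0.35 to 0.32. Scaling by the implied library totals moved the median of all genes to 0.16, and the limma fits with 1 and 0.1 added moved it to 0.14 and 0.17.

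Against 21 genes called higher and 5 lower, DESeq2 called 163 and 126, and the gene length offset 32 and 8. Upper-quartile factors and no filter each called 9 lower, a mean FPKM of at least 1 called 8 lower, and both limma fits called 10 lower. Leaving out each library gave 0 to 56 higher and 0 to 19 lower, and without vehicle replicate 1 and NJT-2 replicate 2 there were 255 and 227. In these fits of fewer libraries the pathway genes called ran from 0 to 1 lower, with 0 higher, and the cell markers from 0 to 7 higher and 0 to 1 lower. Without both libraries, 1 pathway gene was called higher and 12 lower, and 14 cell markers higher and 3 lower. DESeq2 called 3 pathway genes lower and 13 cell markers higher and 3 lower. The cause of these differences was not tested.

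No pairing of libraries by replicate number is stated in the sources used here. The deviations of same-numbered libraries correlated at 0.179, 0.0325, and -0.207. With 3 libraries per group these values cannot settle whether the libraries were paired. With the replicate block, 43 genes were called higher and 14 lower, and 1 pathway gene lower.

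Of the other named genes that were tested, these turned sign. *Ccl3* was -0.27 and -0.62 in the limma fits with 1 and 0.1 added, -0.98 with the replicate block, -1.91 without both libraries, and -2.13 to 0.69 leaving out each library. *Adsl* was 0.18 with implied totals, 0.014 in limma with 1 added, 0.62 without both libraries, and -0.36 to 0.29 leaving out each library. *Ndufaf7* was 0.0153 with implied totals, 0.40 without both libraries, and -0.55 to 0.17 leaving out each. *Col1a1* was 0.16 in both limma fits and -0.63 to 0.16 leaving out each, and *Il6st* was 0.0192 and 0.0205 in them and -0.46 to 0.14. Without both libraries *Nfkbia* was -0.89, *Stat3* -0.12, and *Tek* -0.15, and leaving out each *Nfkbia* ran from -0.53 to 1.14. *Csf1r* (0.03 as reported) was -0.00755 with upper-quartile factors, -0.16 with the gene length offset, and -0.23 to 0.37 leaving out each.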
